A study of Mus musculus with 16 samples.

Results

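The effect of deleting Hpgd was compared between 2 kinds of T cell sorted from mouse visceral fat: Treg (regulatory T cells, CD4 T cells that express Foxp3 and hold other immune cells in check) and Tconv (conventional T cells). The quantity followed is a difference of differences per gene, the change from wild type (WT) to deleted (KO) in Treg minus the change from WT to KO in Tconv, on the scale of log2(normalised value + 1). A positive value means that a gene stood higher in KO relative to WT in Treg than it did in Tconv. It was computed for 14319 of the 19540 genes in the table, those at a value of 10 or more in at least 3 of the 16 libraries. Treg WT had 3 libraries, Treg KO and Tconv WT 4 each and Tconv KO 5, from visceral adipose tissue (VAT) of C57BL/6JRcc mice aged 12 weeks. Both alleles of the line label, a floxed Hpgd and a Foxp3-YFP-Cre that is active in Foxp3-expressing cells, stand identically on all 16 samples, so WT and KO rest on the sample titles. GEO's design text counts 5 deleted and 4 WT animals but ties no library to an animal, so p-values reflect only the spread among libraries, which may be technical.

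Hpgd encodes 15-hydroxyprostaglandin dehydrogenase, which oxidises prostaglandin E2 and related prostanoids to products with little activity at their receptors. Prostaglandin E2 acts on T cells mainly through the receptors EP2 and EP4, which raise cyclic AMP, and the oxidised product of the enzyme is a known ligand of the nuclear receptor PPARγ. VAT Treg are a tissue population known for PPARγ, the IL-33 receptor and lipid-handling genes. Cre was driven by Foxp3, so Tconv of the deleted mice are neighbours of deleted cells and not themselves targeted.

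The 16 libraries held 3.39 to 9.26 M reads, except Tconv KO 3 with 56.7 M. Reads fell on 13366 to 16041 genes per library. The WT to KO change in this number was 1099 genes in Treg and 769 in Tconv, a difference of 330 (exact 2-sided permutation test over 4410 relabellings, p = 0.670). Foxp3 marked the sort: it read 279 to 616 in the Treg libraries, and in Tconv it read 20.6 in Tconv WT 1, 39.3 in Tconv WT 4 and at most 4.99 in the other 7. Summed markers of T cells were 29116 to 34015 in Treg WT, 32341 to 39584 in Treg KO, 40418 to 47687 in Tconv WT and 40588 to 54816 in Tconv KO. Some Tconv WT libraries carried RNA of other cells. Summed neutrophil and mast cell markers were 17312 in Tconv WT 1 against 79.3 to 199 elsewhere, and summed red cell and platelet markers were 160122 in Tconv WT 3 against at most 1622 elsewhere. Tconv WT 1, Tconv WT 3 and the deep Tconv KO 3 were therefore left out together in an alternative fit. Its values stand beside each list described here whose median it moved by over 1.5 times, and beside each named gene at an unadjusted p under 0.05 whose difference it moved as much.

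Hpgd itself (chr8:56294585-56321043, mm10) did not reach the filter. It read 73.1, 56.0 and 4.31 in Treg WT, the last from 3 reads in the library labelled Treg WT 3, and 3.41, 2.54, 2.42 and 1 in Treg KO. A value of 1 means no reads, and in Tconv Hpgd had reads only in Tconv KO 3, at 6.20 from 41 reads. The 2 Treg groups did not overlap, though at their border Treg WT 3 had 3 reads and Treg KO 1 had 2. The other 8 Tconv libraries were all without reads. Its difference of deletion effects was −3.50 (exact 2-sided permutation test of labels within each cell type, p = 0.0317), which is a Treg change of −3.13 less a Tconv change of 0.37. That permutation test asks for no effect in either cell type, so its p does not by itself place the effect in Treg. Without Treg WT 1 or without Treg WT 2 the difference was −2.81 or −3.00 (exact permutation p = 0.0741 in each case). With 1 Treg WT library fewer, that is the smallest p the test could give in this direction.

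Whether the deletion acted differently in Treg and in Tconv was then tested for every gene that reached the filter. No gene passed: 0 of 14319 had an adjusted p under 0.05 (0%; limma with Benjamini-Hochberg adjustment, smallest adjusted p = 0.293), and voom on recovered reads also gave 0. At an unadjusted p under 0.05 limma listed 748 genes (5.22%), near the 716 that this threshold admits by itself. Of these 436 had a positive difference (3.04% of those tested) and 312 a negative one (2.18%), and voom gave 846 in all. With quantile scaling the split was 354 positive and 361 negative. The deletion effects themselves were called for 3 genes within Treg (0.021%) and for 0 within Tconv (0%). The median difference over all genes was 0.06, and 7639 genes (53.3%) were positive. At the median gene the 95% interval, which is not adjusted, reached 1.77 log2 units to either side of the difference. In a gene of that spread a smaller difference could not be told from 0, and a call after adjustment asked for a larger one still. Gene names given here therefore describe where the largest differences stood, and none of them is a call. The same holds for groups described as apart or without overlap within 1 cell type. In Treg, with 3 against 4 libraries, such a separation has an exact 2-sided permutation p of 0.0571. The share of all tested genes with groups apart within 1 cell type is not given here.

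Of the 748 genes, 474 had the larger change in Treg and 274 the larger change in Tconv, against 7957 and 6362 of all tested genes. Opposite signs in the 2 cell types were present in 702 of them, which choosing genes by a difference favours, against 6868 of all 14319. In 88 of the 748 a whole group was without reads, against 679 of all 14319.

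**Figure D1:**
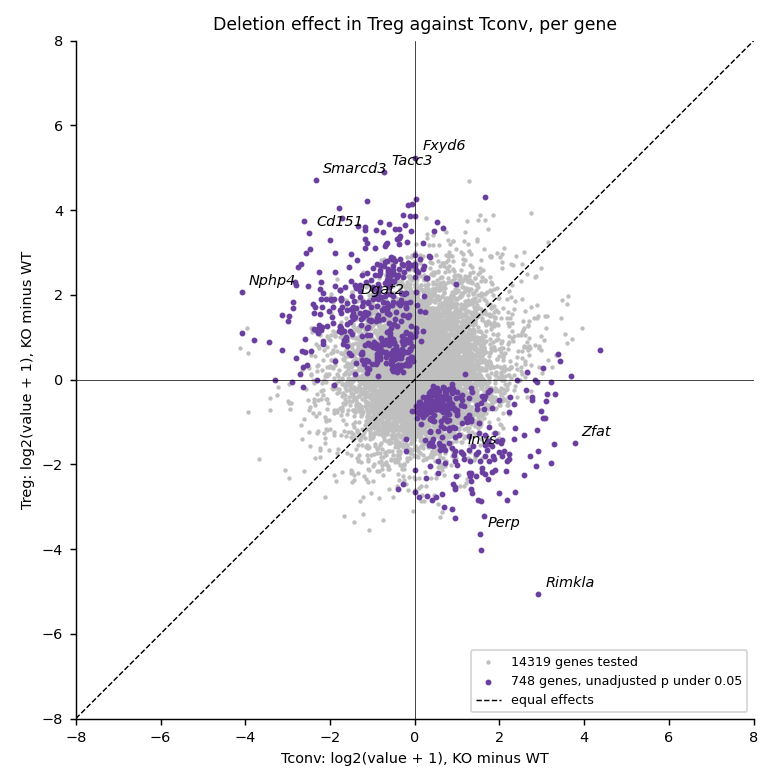
Each point is 1 of 14319 tested genes, with the WT to KO change in Tconv on the x axis and in Treg on the y axis, both in log2(value + 1); purple points are the 748 genes at an unadjusted p under 0.05 and the dashed line marks equal effects. Most purple points lie at the upper left and lower right, with Fxyd6 and Tacc3 at the top near no change in Tconv and Rimkla at the lower right.

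Genes that were nearly silent in Treg WT and present in Treg KO led the positive side. Fxyd6 (chr9:45370185-45396159), a regulator of the sodium-potassium pump, had the smallest p of all genes. It had no reads in any Treg WT library and read 87.8, 24.0, 86.0 and 167 in Treg KO, while Tconv WT read 1, 1, 2.01 and 1 and Tconv KO 1, 1, 2.39, 1 and 1. All 4 Treg KO libraries thus stood apart from the other 12. Its difference was 5.23 (95% interval 3.23 to 7.23, unadjusted p = 2.67e-05, adjusted p = 0.293), and the Treg KO mean was at least 31.3-fold higher than the mean floor of 3 reads per library in Treg WT. Tacc3 (chr5:33658128-33678995), a protein of the mitotic spindle whose exons overlap Tmem129, likewise had no reads in Treg WT. It read 68.5, 85.5, 52.0 and 38.9 in Treg KO, a mean at least 20.9-fold higher than that floor, while Tconv WT read 85.8, 98.4, 44.3 and 139 and Tconv KO 44.8, 85.9, 203, 71.2 and 5.44. Treg WT was therefore the group that differed, since the other 3 overlapped, and the difference was 5.63 (95% interval 3.12 to 8.14, unadjusted p = 0.000154, adjusted p = 0.552). A fitted difference against an unread group depends on the added 1 and is no bound.

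Smarcd3, a subunit of the SWI/SNF chromatin remodelling complex whose exons overlap Chpf2, had the largest positive difference among tested genes. It read 28.4, 4.49 and 1 in Treg WT and 105, 231, 264 and 161 in Treg KO, against 24.8, 125, 9.05 and 1 in Tconv WT and 1, 1, 1.38, 15.4 and 1 in Tconv KO. Treg KO lay above Treg WT in every library, while the Tconv groups overlapped at low values. The difference of 7.06 (95% interval 3.69 to 10.42, unadjusted p = 0.000307, adjusted p = 0.62) combined a Treg change of 4.72 with a Tconv change of −2.34. Nphp4 (chr4:152476706-152563183), a protein of the ciliary transition zone, came mostly from Tconv. It read 48.6, 23.3, 12.1 and 135 in Tconv WT and 1, 1, 1, 2.6 and 1 in Tconv KO, with no overlap, but had no reads in Treg WT and read 1, 34.8, 16.6 and 2.95 in Treg KO. Its difference was 6.16 (95% interval 3.48 to 8.84, unadjusted p = 0.000119, adjusted p = 0.552), of which −4.09 was the Tconv change.

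**Figure D2:**
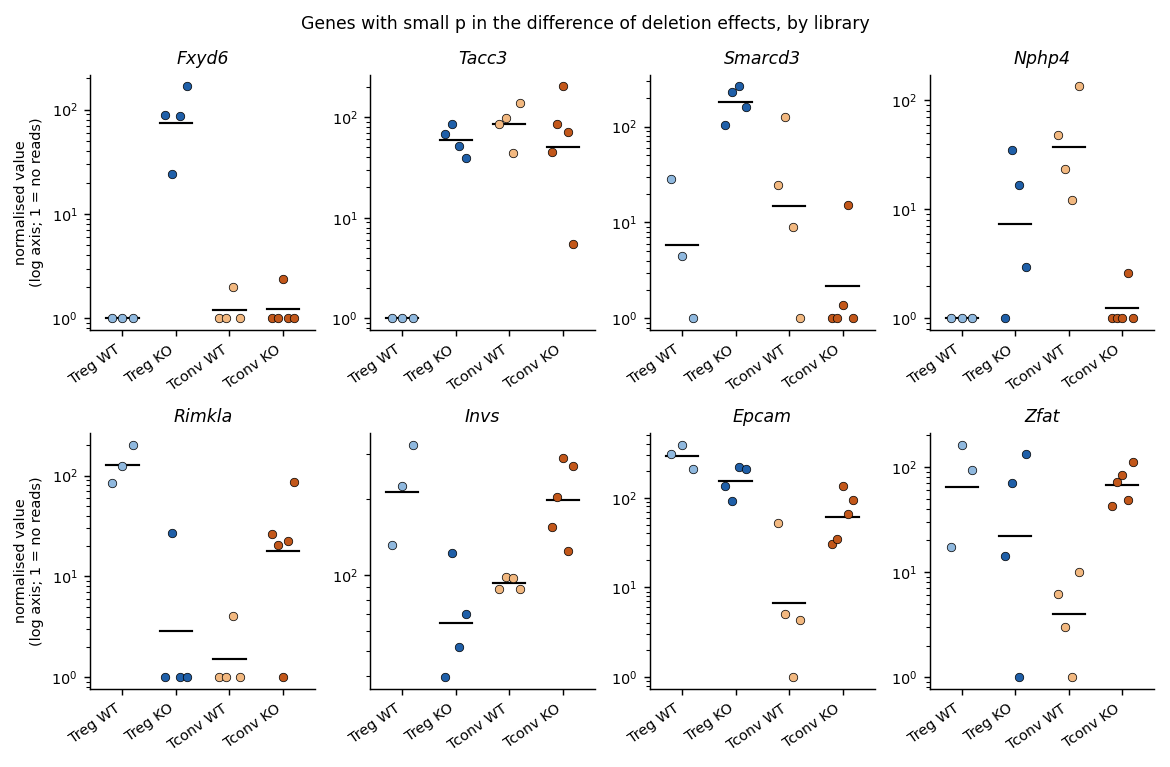
Normalised values of 8 genes in each of the 16 libraries on a log axis, grouped by cell type (Treg, Tconv) and genotype (WT, KO); a value of 1 means no reads and each bar is the mean of log2(value + 1) of a group, turned back to the scale of the values. Fxyd6 stands high only in the 4 Treg KO libraries shown, and Invs has Treg KO below Treg WT and Tconv KO above Tconv WT.

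The other 8 positive genes with the smallest p were expressed in all 4 groups or nearly so, and their adjusted p lay between 0.620 and 0.928. Slc35b4, a nucleotide sugar transporter of the secretory pathway, read 118, 35.9 and 66.1 in Treg WT and 454, 445, 525 and 316 in Treg KO; Tconv WT spanned 169.9 to 279 and Tconv KO 163 to 483 (difference 2.46, 95% interval 1.30 to 3.63, unadjusted p = 0.000287). Treg WT alone was low. Pou6f1, a POU-domain transcription factor, showed the same arrangement: 74.0, 42.9 and 67.2 in Treg WT, 199, 308, 235 and 217 in Treg KO and 269 to 489 across both Tconv groups, with a difference of 1.74 (95% interval 0.83 to 2.65, unadjusted p = 0.000755). Pgam5, a mitochondrial phosphatase, read 36.8 to 123 in Treg WT and 213 to 354 in Treg KO (difference 2.20, 95% interval 0.94 to 3.45, unadjusted p = 0.00161). Yif1a, which works in transport between the endoplasmic reticulum and the Golgi, read 85.6 to 246 in Treg WT and 362 to 481 in Treg KO (difference 1.89, 95% interval 0.79 to 2.98, unadjusted p = 0.00192). In both genes the Treg groups were apart and the Tconv groups overlapped.

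Tmbim4, an inhibitor of apoptosis that sits in the Golgi and overlaps Irak3, had its separation in Tconv instead. Tconv WT read 596, 563, 696 and 622 and Tconv KO 393, 352, 355, 295 and 291, with no overlap, while Treg WT read 838, 542 and 542 and Treg KO 915, 780.0, 821 and 860.2. Its difference was 1.31 (95% interval 0.68 to 1.94, unadjusted p = 0.000347, adjusted p = 0.62). Lgals9, which encodes galectin-9, read 1566, 1351 and 1007 in Treg WT and 2219, 1702, 1672 and 2184 in Treg KO, a set of groups without overlap, against 1337, 1671, 1454 and 1039 in Tconv WT and 881, 828, 1039.8, 1155 and 558 in Tconv KO. The difference of 1.23 (95% interval 0.54 to 1.91, unadjusted p = 0.0014) was made up of 0.58 in Treg and −0.64 in Tconv. Cope, a subunit of the COPI coat of Golgi vesicles, read 1103 to 1467 in Treg WT and 1825 to 2013 in Treg KO and gave 0.92 (95% interval 0.39 to 1.45, unadjusted p = 0.00178). For the tetraspanin Cd151, Treg WT read 42.1, 1 and 1 and Treg KO 42.0, 76.3, 49.1 and 81.8, while Tconv WT read 149, 80.2, 77.5 and 56.2 and Tconv KO 99.5, 2.56, 1.13, 32.1 and 31.2. Its difference of 5.95 (95% interval 2.57 to 9.34, unadjusted p = 0.00158) combined a Treg change of 3.45, with Treg WT 2 and 3 unread, and a Tconv change of −2.50.

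On the negative side Rimkla (chr4:119465283-119492628), a ligase that joins N-acetylaspartate to glutamate and overlaps Zmynd12, had the smallest p and the largest difference. Treg WT read 84.1, 124 and 202 and Treg KO 1, 27.1, 1 and 1, while Tconv WT read 1, 1, 4.02 and 1 and Tconv KO 26.5, 20.5, 1, 22.5 and 86.3. It was high in all 3 Treg WT libraries, absent from 3 of 4 Treg KO libraries, and present in 4 of 5 Tconv KO libraries but in 1 of 4 Tconv WT libraries. The difference was −7.97 (95% interval −11.13 to −4.81, unadjusted p = 4.09e-05, adjusted p = 0.293). Fxyd6 and Rimkla passed without Treg KO 2 (5.76 and −8.92, adjusted p = 0.0401 for both), and Rimkla passed without Tconv KO 3 (−8.78, adjusted p = 0.0373).

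Invs (chr4:48279760-48431954), which encodes inversin of the primary cilium and overlaps Tex10, read 132, 224 and 325 in Treg WT and 39.6, 122, 52.0 and 70.1 in Treg KO. Tconv ran the other way, from 87.9, 98.4, 97.6 and 87.7 in WT to 154, 202, 288, 125 and 268 in KO, and neither pair of groups overlapped. The difference was −2.78 (95% interval −4.09 to −1.47, unadjusted p = 0.000279, adjusted p = 0.62). Few genes had groups apart in opposite directions, and nothing is read from their number. Of 14319 genes 2 were apart upward in Treg and downward in Tconv (0.014%) and 1, Invs, was apart the other way (0.00698%). The other two, chosen here after their values were seen, were Cog3, a subunit of the Golgi tethering complex COG, and Jagn1, a protein of the endoplasmic reticulum. Cog3 read 272, 287 and 123 in Treg WT and 364, 611, 298 and 425 in Treg KO, and 526, 636, 717 and 599.9 in Tconv WT and 481, 373, 258, 472 and 435 in Tconv KO (difference 1.58, 95% interval 0.66 to 2.51, unadjusted p = 0.00199, adjusted p = 0.928). Jagn1 read 94.1 to 123 in Treg WT, 159 to 218 in Treg KO, 152 to 239 in Tconv WT and 66.7 to 149 in Tconv KO (difference 1.51, 95% interval 0.45 to 2.57, unadjusted p = 0.00764, adjusted p = 0.928).

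Plekhn1, Coq7, Gnptab and Perp had groups apart in Treg and overlapping groups in Tconv. Plekhn1 read 221 to 418 in Treg WT and 103 to 178 in Treg KO (difference −2.34, 95% interval −3.64 to −1.04, unadjusted p = 0.00129). Coq7, a hydroxylase of ubiquinone synthesis, read 84.1, 97.0 and 142 in Treg WT and 25.1, 44.0, 49.1 and 20.5 in Treg KO; Tconv WT spanned 16.5 to 109.7 and Tconv KO 80.1 to 133 (difference −2.94, 95% interval −4.68 to −1.20, unadjusted p = 0.00217). Gnptab, which makes the mannose 6-phosphate tag of lysosomal enzymes, read 213, 172 and 137 in Treg WT and 57.7, 85.5, 26.5 and 79.8 in Treg KO; Tconv WT spanned 175 to 419.7 and Tconv KO 221 to 393 (difference −1.99, 95% interval −3.20 to −0.78, unadjusted p = 0.00265). Perp, a membrane protein of desmosomes, read 152, 318 and 332 in Treg WT and 63.7, 1, 59.1 and 20.5 in Treg KO (difference −5.19, 95% interval −8.35 to −2.03, unadjusted p = 0.00275).

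Zfat, Otud5 and Prdm10 were apart in Tconv and not in Treg. Zfat, a zinc finger protein of lymphocytes, read 6.17, 3.03, 1 and 10.0 in Tconv WT and 42.3, 72.7, 83.3, 48.9 and 112 in Tconv KO, while Treg WT read 17.4, 162 and 94.7 and Treg KO 14.3, 70.1, 1 and 133 (difference −5.28, 95% interval −8.49 to −2.07, unadjusted p = 0.00271). Otud5, a deubiquitinase, read 405 to 509 in Tconv WT and 627 to 895 in Tconv KO (difference −1.10, 95% interval −1.74 to −0.46, unadjusted p = 0.00191). Prdm10 read 41.3 to 161 in Tconv WT and 168 to 238 in Tconv KO (difference −2.12, 95% interval −3.42 to −0.81, unadjusted p = 0.00297), and gave −1.39 without Tconv WT 1 and 3 and Tconv KO 3. Epcam, an epithelial adhesion protein, read 309, 388 and 209 in Treg WT and 136, 93.2, 218 and 207 in Treg KO, and 52.7, 5.06, 1 and 4.38 in Tconv WT and 30.2, 34.5, 136, 66.4 and 93.4 in Tconv KO. Both of its pairs of groups overlapped, the Tconv one through Tconv WT 1, and the difference was −3.94 (95% interval −6.32 to −1.57, unadjusted p = 0.00251). Btbd1, at 203 to 369 in Treg WT and 110.0 to 208 in Treg KO, gave −1.84 (95% interval −2.89 to −0.78, unadjusted p = 0.00175), and Thsd1, unread in Treg KO, gave −5.59 (95% interval −8.79 to −2.39, unadjusted p = 0.00165). The adjusted p of these 10 genes from Plekhn1 to Thsd1 was 0.928 in each case.

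Among the 12 genes named for a small p with a highest group mean of at least 1000, differences lay between −1.36 and 3.30. Dgat2 (chr7:99153658-99182719), which makes triglyceride from diacylglycerol and is counted among the VAT Treg genes, read 220.1, 318 and 477 in Treg WT and 1280.0, 1516, 633 and 1534 in Treg KO, with no overlap, and in Tconv 49.6, 19.3, 40.2 and 33.6 in WT and 4.65, 25.2, 39.4, 28.1 and 1 in KO. Its Treg change was 1.86 and its Tconv change −1.44, giving 3.30 (95% interval 1.04 to 5.55, unadjusted p = 0.00638, adjusted p = 0.928). Tconv KO 1 and Tconv KO 5, at 4.65 and 1, carried most of the Tconv part. Ptpn6, which encodes the phosphatase SHP-1, read 262, 208 and 100.2 in Treg WT, 279, 405, 713 and 259.8 in Treg KO, 1560.2, 1282, 989 and 805 in Tconv WT and 726, 627, 1146, 766 and 579 in Tconv KO, so that Treg KO stood above Treg WT and Tconv KO below Tconv WT on average, with overlaps in both (difference 1.70, 95% interval 0.65 to 2.75, unadjusted p = 0.00311). Ehd3, an endosomal recycling protein, read 41.2, 66.4 and 1 in Treg WT and 177, 121, 100.1 and 95.4 in Treg KO against 881 to 1803 in Tconv (difference 2.92, 95% interval 0.86 to 4.98, unadjusted p = 0.00787). Prdx2, a peroxiredoxin whose exons overlap Junb, gave 1.02 (95% interval 0.29 to 1.75, unadjusted p = 0.00897).

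Of the negative genes among them, Malat1, a nuclear long noncoding RNA, read 51253, 54785 and 67138 in Treg WT and 45084, 38149.6, 32809.5 and 33296 in Treg KO, with no overlap, and 48196, 38618, 52005 and 46434 in Tconv WT and 61389.8, 37595, 60101, 37016 and 60456 in Tconv KO, which overlapped (difference −0.75, 95% interval −1.29 to −0.21, unadjusted p = 0.00918). Nsd1, a histone H3 lysine 36 methyltransferase, read 1351 to 1521 in Treg WT and 903 to 1069 in Treg KO (difference −0.86, 95% interval −1.48 to −0.23, unadjusted p = 0.00948). Luc7l2, a splicing factor, read 846 to 1120.2 in Treg WT and 371 to 751 in Treg KO (difference −0.97, 95% interval −1.68 to −0.26, unadjusted p = 0.0103). Mgea5, the O-GlcNAcase, read 1501 to 1830.5 in Treg WT and 1183 to 1287 in Treg KO (difference −0.78, 95% interval −1.36 to −0.21, unadjusted p = 0.0104). In each of these the Treg groups were apart and the Tconv groups overlapped. H2-Q10, a class Ib histocompatibility gene whose reads can be shared with close relatives, gave −1.36 (95% interval −2.35 to −0.37, unadjusted p = 0.00991) with both pairs of groups overlapping.

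**Figure D3:**
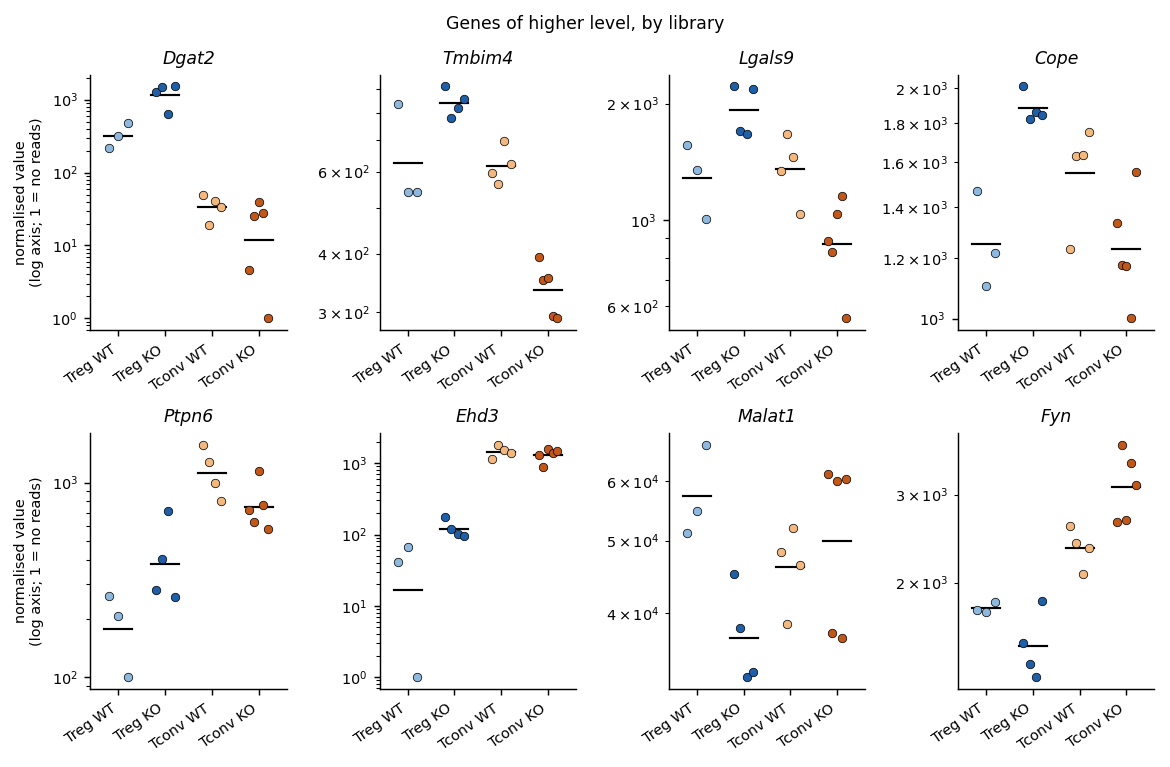
Normalised values of 8 genes of higher level in each of the 16 libraries on a log axis, grouped by cell type (Treg, Tconv) and genotype (WT, KO), where each bar is the mean of log2(value + 1) of a group, turned back to the scale of the values. Dgat2 is higher in the 4 Treg KO than in the 3 Treg WT libraries, Tmbim4 is lower in the 5 Tconv KO than in the 4 Tconv WT libraries, and the Treg groups of Malat1 do not overlap.

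Lists of genes with known roles were read against the background of all tested genes, of which 53.3% were positive at a median of 0.06. No list held a member that passed. Of 25 Treg core genes, all tested, 17 were positive at a median of 0.24, and 3 had an unadjusted p under 0.05, all positive, where 3.04% of all tested genes did so. Without Tconv WT 1 and 3 and Tconv KO 3 the count was 13 of 25 and the median 0.01. With Treg WT 3 left out as well, it was 13 of 25 at a median of 0.15. Tnfrsf4, the costimulatory receptor OX40, read 11359, 9403 and 15048 in Treg WT and 14451, 15079, 18359 and 21804 in Treg KO, and 3573, 2560.4, 4988 and 2034 in Tconv WT and 2946, 2047, 2170.1, 2474 and 2356 in Tconv KO. Treg KO was higher and Tconv KO lower on average, with both pairs overlapping, and the difference was 0.94 (95% interval 0.25 to 1.63, unadjusted p = 0.0105), or 0.46 without those 3 libraries. Nrp1, the semaphorin receptor neuropilin-1, gave 1.18 (95% interval 0.02 to 2.34, unadjusted p = 0.047), and Capg, an actin capping protein, 0.82 (95% interval 0.00 to 1.64, unadjusted p = 0.0499). Tnfrsf18, the related receptor GITR, gave 0.41 (95% interval −0.04 to 0.86, unadjusted p = 0.073). Foxp3, the factor that defines the lineage, gave 1.55 (95% interval −1.11 to 4.20), from a Treg change of 0.03 and the Tconv WT 1 and 4 reads named above. The suppressive cytokine Il10 read 16794, 3199.8 and 20723 in Treg WT and 8472, 3836, 17184 and 14178 in Treg KO, with a difference of −0.91 (95% interval −2.52 to 0.70, unadjusted p = 0.251). In sorted bulk cells, fewer cells of a type and less RNA per cell cannot be told apart.

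The 25 VAT Treg genes were positive in 20 cases at a median of 0.58, and 1 of them, Dgat2, had an unadjusted p under 0.05. Gata3, the factor of type 2 programmes that VAT Treg also carry, read 14539, 7428 and 15214 in Treg WT and 16025, 11267, 18289.9 and 19432 in Treg KO, and 4051, 1988, 3874 and 2590.2 in Tconv WT and 2031, 1821, 5155, 2117 and 1794 in Tconv KO. Both pairs overlapped, and its difference was 0.78 (95% interval −0.17 to 1.73, unadjusted p = 0.102). The chemokine receptor Cxcr6 gave 1.06 (95% interval −0.10 to 2.22, unadjusted p = 0.0716) and the hyaluronan receptor Cd44 0.94 (95% interval −0.10 to 1.98, unadjusted p = 0.0731). Treg WT 2 was the lowest Treg WT library for Gata3 and Cxcr6, and Tconv WT 1 and 3 the highest Tconv WT libraries. Without Tconv WT 1 and 3 and Tconv KO 3 the list had 14 of 25 positive and a median of 0.02. With Treg WT 3 left out as well it had 17 of 25 at 0.53. It also moved with single Treg WT libraries, to 19 of 25 at 0.24 without Treg WT 2 and 22 of 25 at 0.94 without Treg WT 3. What part the marker levels of Tconv WT 1 and 3 and Tconv KO 3 have in the list was not tested.

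**Figure D4:**
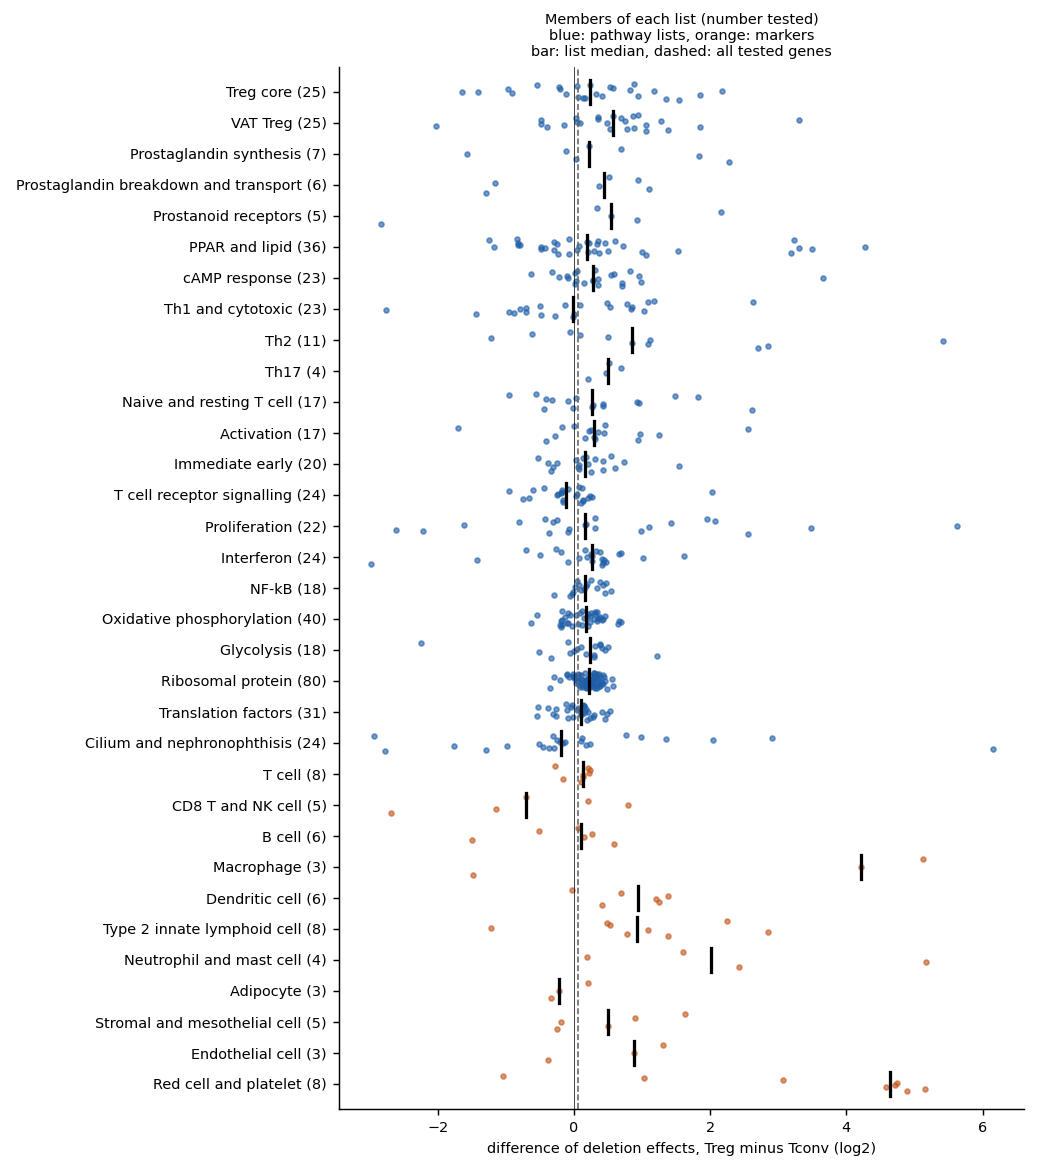
Differences of deletion effects (log2, x axis) for the tested members of each list (rows, with the number tested); blue points are pathway lists, orange points cell type markers, black bars list medians, and the dashed line the median of all tested genes at 0.06. Ribosomal protein genes sit close together just to the right of that line, and red cell and platelet markers lie far to the right.

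The prostaglandin genes nearest to the deleted enzyme showed no member at an unadjusted p under 0.05, Hpgd having been below the filter. Of the 10 synthesis genes 7 were tested and 5 were positive (median 0.23). The median turned on single libraries, with 3 of 7 at −0.13 without Treg WT 1, 3 of 7 at −0.24 without Treg WT 2, 6 of 7 at 0.89 without Treg WT 3, and 4 of 7 at 0.56 without Tconv WT 1 and 3 and Tconv KO 3. Ptges3, the most abundant of them and also the cochaperone p23, read 1325 to 2019 in Treg WT, 931 to 1549 in Treg KO, 1211 to 1586 in Tconv WT and 1054 to 1498 in Tconv KO, giving −0.11 (95% interval −0.71 to 0.49, unadjusted p = 0.699). The inducible prostaglandin E synthase Ptges gave 1.84 (95% interval −0.43 to 4.11, unadjusted p = 0.106), the membrane-associated Ptges2 −1.57 (95% interval −3.44 to 0.29, unadjusted p = 0.0939), and the prostaglandin D synthase Hpgds 0.69 (95% interval −1.99 to 3.37, unadjusted p = 0.597). Cyclooxygenase genes were thin: Ptgs2 had reads in 5 of 16 libraries (0.03), and Ptgs1 gave 2.28 (95% interval −1.87 to 6.43, unadjusted p = 0.265). Pla2g4a, Ptgds and Ptgis stayed below the filter.

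Of 7 breakdown and transport genes 6 were tested and 4 were positive (median 0.45). Single libraries moved this list as well, to 3 of 6 at 0.13 without Treg WT 2 and 4 of 6 at 0.59 without Tconv KO 1. The reductase Ptgr2, which acts on the product of Hpgd, gave 1.11 (95% interval −0.68 to 2.90, unadjusted p = 0.212), and Ptgr1, with the same step, −1.29 (95% interval −4.74 to 2.15, unadjusted p = 0.442). The exporter Abcc4 gave 0.94 (95% interval −0.60 to 2.48, unadjusted p = 0.218), the uptake carrier Slco2a1 −1.16 (95% interval −3.64 to 1.32, unadjusted p = 0.34) and the carbonyl reductase Cbr1 0.52 (95% interval −1.15 to 2.18, unadjusted p = 0.523). All of these intervals held 0.

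Of 9 prostanoid receptors 5 were tested and 4 were positive (median 0.54). Here too single libraries set the direction, with 2 of 5 at −0.21 without Treg WT 3, 1.76 at the median without Treg WT 2, and 4 of 5 at 0.99 without Tconv WT 1 and 3 and Tconv KO 3. Ptger4, which encodes EP4, read 488, 564 and 449 in Treg WT and 621, 879.8, 720.3 and 822 in Treg KO, groups without overlap, and 1174, 1162, 884 and 1197 in Tconv WT and 1035, 1428, 1355, 1014 and 945 in Tconv KO. The Tconv groups overlapped, and the difference was 0.54 (95% interval −0.06 to 1.14, unadjusted p = 0.075). Ptger2, which encodes EP2, spread from 15.3 to 278 in Treg WT and 44.9 to 271 in Treg KO (difference 0.93, 95% interval −2.18 to 4.04, unadjusted p = 0.539). The prostacyclin receptor Ptgir read 168, 179 and 766 in Treg WT and 314, 107, 433 and 671 in Treg KO, and 194, 13.2, 333 and 31.4 in Tconv WT and 1, 8.01, 223, 8.98 and 49.0 in Tconv KO (difference 2.17, 95% interval −1.37 to 5.70, unadjusted p = 0.215). Ptger1 gave −2.83 (95% interval −6.69 to 1.03, unadjusted p = 0.142) and the thromboxane receptor Tbxa2r 0.33 (95% interval −2.68 to 3.35, unadjusted p = 0.82). Ptger3, Ptgdr, Ptgdr2 and Ptgfr stayed below the filter. Downstream of EP2 and EP4, the 23 cyclic AMP response genes had 18 positive (median 0.28) and 0 at an unadjusted p under 0.05. Their count was 14 of 23 with quantile scaling, 15 of 23 at a median of 0.12 without Treg WT 2 and 16 of 23 at 0.38 without Treg WT 1. Rgs2, a regulator of G protein signalling, gave 0.82 (95% interval −0.15 to 1.79, unadjusted p = 0.0921), the cyclic AMP response modulator Crem 0.71 (95% interval −0.10 to 1.51, unadjusted p = 0.081) and the phosphodiesterase Pde4a 3.66 (95% interval −0.17 to 7.50, unadjusted p = 0.0601). Among the 20 immediate early genes 15 were positive (median 0.16), 10 with quantile scaling and 7 of 20 at −0.10 without Treg WT 2.

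PPAR and lipid genes held 6 of 36 tested members at an unadjusted p under 0.05, 5 positive and 1 negative, with 21 positive in all (median 0.20); over all tested genes the shares were 3.04% and 2.18%. Without Tconv WT 1 and 3 and Tconv KO 3 the list had 19 of 35 at 0.07, and without Tconv WT 1 alone the median was 0.03. Dgat2 is one of the positive ones. Its counterpart Dgat1, which makes the same lipid, gave −0.49 (95% interval −1.99 to 1.01, unadjusted p = 0.503), from 8939.9, 10026 and 24948 in Treg WT to 7886, 16107, 4309.9 and 14029 in Treg KO. Scd2, a fatty acid desaturase, read 10.1, 1 and 1 in Treg WT and 40.8, 24.0, 40.6 and 18.5 in Treg KO, apart from each other, and 173, 125, 143 and 153 in Tconv WT and 183, 204, 1, 185 and 85.4 in Tconv KO (difference 4.28, 95% interval 0.92 to 7.63, unadjusted p = 0.0151). Tconv KO 3 alone was without reads among the Tconv libraries. Cd36, a fatty acid uptake receptor, was unread in Treg WT and read 16.7, 27.1, 26.5 and 1 in Treg KO. The Treg KO mean was at least 5.82-fold higher than the floor, but Treg KO 4 was unread and the Treg groups overlapped. The Tconv groups read 3.03 to 10.3 and 1 to 16.2 (difference 3.19, 95% interval 0.58 to 5.80, unadjusted p = 0.0192). Nr1h2, which encodes the sterol receptor LXRβ, was the negative member. It read 1140.2, 1762 and 1300.0 in Treg WT and 732, 1079.5, 1035 and 851 in Treg KO, without overlap, and overlapped in Tconv (difference −0.83, 95% interval −1.50 to −0.16, unadjusted p = 0.0175). The lipase Mgll and the droplet protein Plin3, named after their values were seen, gave 3.50 (95% interval 0.57 to 6.42, unadjusted p = 0.0215) and 1.53 (95% interval 0.12 to 2.94, unadjusted p = 0.0351) and complete the positive ones. Plin2, another droplet protein, gave 0.50 (95% interval −1.12 to 2.11, unadjusted p = 0.529) and the sterol regulator Srebf2 0.08 (95% interval −0.45 to 0.61, unadjusted p = 0.76).

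Of 23 Th1 and cytotoxic genes 10 were positive (median −0.01, and −0.14 with unread groups set at their floors), and the median ran from −0.28 without Treg WT 3 to 0.29 without Treg WT 2. Klrk1, the receptor NKG2D, read 372, 368, 381 and 1124 in Tconv WT and 143, 158, 305, 48.1 and 249.8 in Tconv KO, which did not overlap, against 2.83, 1 and 1 and 37.2, 1, 2.42 and 1 in Treg WT and KO (difference 2.63, 95% interval 0.02 to 5.23, unadjusted p = 0.0485). The chemokine Ccl5 read 1238 to 8557 in Treg WT, 596 to 6379 in Treg KO, 10566 to 21908 in Tconv WT and 16661 to 57579.6 in Tconv KO (difference −0.79, 95% interval −2.64 to 1.05, unadjusted p = 0.38). Of 11 tested Th2 genes 8 were positive (median 0.86, and 0.13 over the 10 still tested without the 3 libraries). With Treg WT 3 left out as well, the Th2 median was 0.36. The cytokine gene Il6 was unread in Treg WT and read 1, 31.7, 15.2 and 29.2 in Treg KO; Tconv WT read 44.4, 9.12, 149 and 67.4 and Tconv KO 1, 37.6, 23.9, 4.19 and 1 (difference 5.43, 95% interval 2.05 to 8.80, unadjusted p = 0.0032). The IL-4 receptor Il4ra gave 0.86 (95% interval −0.11 to 1.82, unadjusted p = 0.0782) and the transcription factor Maf −0.62 (95% interval −1.33 to 0.09, unadjusted p = 0.0851). The 4 tested Th17 genes were positive with wide intervals, the chemokine receptor Ccr6 at 0.69. Their median was 0.50, 0.78 without the 3 libraries and 0.02 without Tconv WT 2. Naive and resting genes had 10 of 17 positive (median 0.26), with the transcription factor Tcf7 at −0.02 (95% interval −1.21 to 1.17, unadjusted p = 0.973).

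Activation and antigen receptor lists held members with intervals below 0 as well as above it. Of 17 activation genes 12 were positive (median 0.29, 0.15 without the 3 libraries and 0.03 without Treg WT 1), with 1 at an unadjusted p under 0.05 in each direction. Pdcd1, which encodes PD-1, read 5498, 5129 and 3782 in Treg WT and 5034, 9162, 7099 and 8860.2 in Treg KO, and 1879, 2674, 2221 and 1925 in Tconv WT and 1476, 2314, 1476, 2501 and 1112 in Tconv KO, with overlaps in both (difference 0.97, 95% interval 0.24 to 1.71, unadjusted p = 0.0121). Cd38, an ectoenzyme that consumes NAD, read 646, 450.2 and 521 in Treg WT and 477, 141, 219 and 394 in Treg KO, and 544, 155, 123 and 226 in Tconv WT and 281, 503, 269, 405 and 468 in Tconv KO (difference −1.70, 95% interval −3.00 to −0.41, unadjusted p = 0.0127). Of 24 T cell receptor signalling genes 11 were positive (median −0.12, and 0.03 without Treg KO 3), and 3 of the 4 at an unadjusted p under 0.05 were negative. Fyn, a Src family kinase, read 2598, 2402, 2081 and 2349 in Tconv WT and 2645, 3773, 2666, 3466 and 3133 in Tconv KO, groups without overlap, and 1765, 1743 and 1828 in Treg WT and 1515, 1371, 1292 and 1837 in Treg KO, which overlapped (difference −0.66, 95% interval −1.15 to −0.17, unadjusted p = 0.0111). Cd28, the costimulatory receptor, read 6555 to 8302 in Tconv WT and 7235 to 7751 in Tconv KO, while Treg WT read 3881, 4225 and 8449 and Treg KO 4148, 2579, 2013 and 4261 (difference −0.75, 95% interval −1.46 to −0.05, unadjusted p = 0.0374). Treg WT 3 was the highest Treg library for Cd28. The phosphatase Ptpn22 gave −0.95 (95% interval −1.78 to −0.13, unadjusted p = 0.0255). Themis, needed for T cell maturation, was the positive one: Treg WT read 6.48, 13.2 and 7.62 and Treg KO 32.3, 115, 8.08 and 77.9, against 1072 to 1806 in Tconv (difference 2.03, 95% interval 0.40 to 3.66, unadjusted p = 0.0172). Lck and Ptprc, at high level in all 4 groups, gave 0.21 and −0.18 with intervals that held 0.

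**Figure D5:**
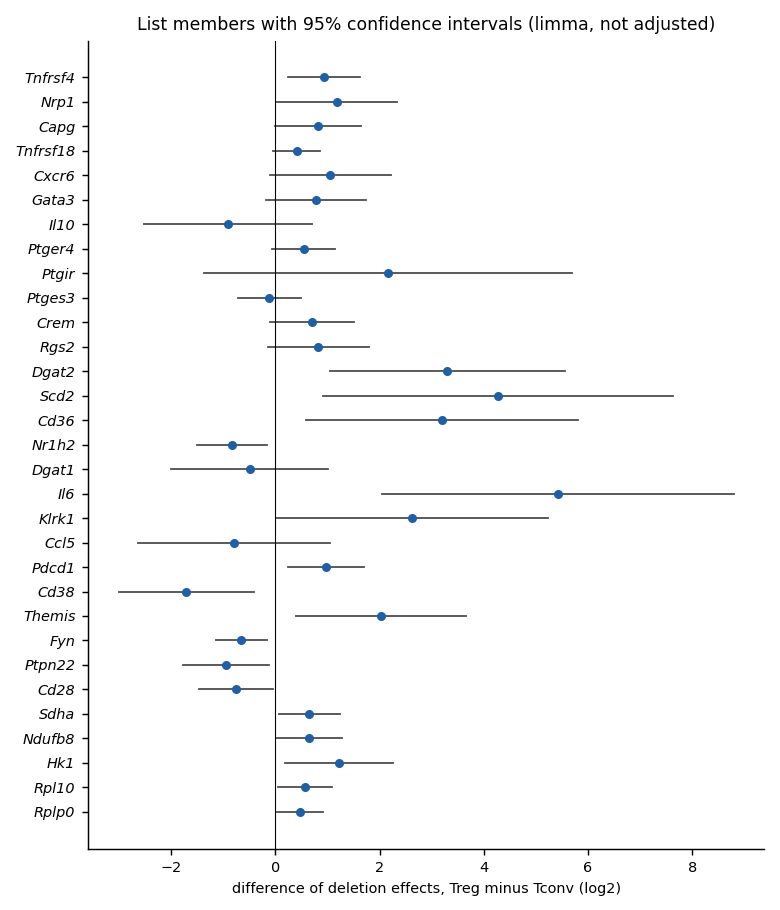
Differences of deletion effects (log2, x axis) with 95% confidence intervals from limma for 31 named members of the lists (rows). Most intervals that clear 0 belong to positive members; Nr1h2, Cd38, Fyn, Ptpn22 and Cd28 are the negative ones.

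Of 80 cytosolic ribosomal protein genes 72 were positive at a median of 0.22, with 3 at an unadjusted p under 0.05, all positive. The count moved with the normalisation: with quantile scaling 55 were positive at a median of 0.07, where the median of all genes was −0.01, and without single libraries the count ran from 59 to 77. Rplp0, of the ribosomal stalk, read 15833, 13202 and 15438 in Treg WT and 22172, 15625, 20972 and 21664 in Treg KO, and 16593 to 20533 and 14741 to 21819 in Tconv WT and KO (difference 0.48, 95% interval 0.04 to 0.92, unadjusted p = 0.0334). Treg KO 2 was the low library of its group for Rplp0. Rpl10 gave 0.57 (95% interval 0.05 to 1.09, unadjusted p = 0.0332).

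Of 40 oxidative phosphorylation genes 26 were positive (median 0.17), and 2 had an unadjusted p under 0.05. Single libraries moved the list to 24 of 40 at 0.07 without Treg KO 1 and 32 of 40 at 0.31 without Treg KO 2. Sdha, the flavoprotein of complex II, read 1537 to 2692 in Treg WT, 2001 to 2639 in Treg KO, 2173 to 2591 in Tconv WT and 1357 to 2457 in Tconv KO (difference 0.65, 95% interval 0.07 to 1.24, unadjusted p = 0.0302), and Ndufb8 of complex I gave 0.65 (95% interval 0.02 to 1.29, unadjusted p = 0.0451). Glycolysis genes had 13 of 18 positive (median 0.23). They had 11 of 18 at 0.06 without Treg WT 2, 11 of 18 at 0.09 with quantile scaling and 13 of 18 at 0.35 without Treg WT 1. Hexokinase Hk1 read 594, 535, 501, 389.5 and 159 in Tconv KO, 543 to 769.9 in Tconv WT, 264 to 582 in Treg WT and 465 to 565 in Treg KO (difference 1.22, 95% interval 0.18 to 2.26, unadjusted p = 0.0235), where Tconv KO 5 was low. Ldha, Pkm, Aldoa and Gapdh gave 0.38, 0.38, 0.45 and 0.41, each with an interval that held 0. Proliferation genes had 12 of 22 positive (median 0.17, and −0.15 with quantile scaling). The count was 10 of 20 at −0.13 without Tconv WT 1 and 3 and Tconv KO 3, and the median ran from −0.16 without Tconv KO 3 to 0.54 without Treg WT 3. Tacc3 and the mitotic kinase Aurkb (3.49 (95% interval 0.33 to 6.65, unadjusted p = 0.0322)) were the 2 at an unadjusted p under 0.05, while Mki67 and Pcna gave 2.56 (95% interval −0.74 to 5.86, unadjusted p = 0.122) and −0.25 (95% interval −0.92 to 0.42, unadjusted p = 0.442).

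Interferon genes had 17 of 24 positive (median 0.26) and NF-kB genes 14 of 18 (median 0.16), with 0 at an unadjusted p under 0.05 in either list. Without Tconv WT 1 and 3 and Tconv KO 3 the NF-kB count was 6 of 18 at a median of −0.16, and the interferon count 17 of 24 at 0.40. Without Treg WT 2 alone the NF-kB count was 7 of 18 at −0.03, and without Tconv WT 3 alone 8 of 18 at −0.03. Other single libraries moved it the other way, to 18 of 18 at 0.37 without Treg WT 3 and 17 of 18 at 0.36 without Tconv WT 4. The interferon list moved with single libraries too, to 13 of 24 at 0.07 without Treg WT 3 and to 17 of 24 at 0.41 without Treg KO 3. Rela, which encodes the p65 subunit, read 2302 to 2321 in Treg WT and 2519 to 3481 in Treg KO, without overlap (difference 0.45, 95% interval −0.13 to 1.03, unadjusted p = 0.122), and the inhibitor Nfkbia gave 0.55 (95% interval −0.80 to 1.89, unadjusted p = 0.403).

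Summed markers of B cells, of macrophages, of neutrophils and mast cells, and of red cells and platelets were each at their highest in 1 Tconv WT library, and those of other cell types elsewhere. Red cell and platelet genes had 7 of 8 tested members positive at a median of 4.65 (3.56 with unread groups at their floors). Their summed level was 48.4 to 114 in Treg WT, 52.5 to 1365 in Treg KO, 140.0 to 160122 in Tconv WT and 63.0 to 207 in Tconv KO. The platelet chemokine Pf4 read 24.8, 25.4, 35.2 and 23.5 in Tconv WT and was unread in Tconv KO, with 5.56, 1 and 1 in Treg WT and 14.3, 1, 1 and 16.6 in Treg KO (difference 4.75, 95% interval 2.38 to 7.11, unadjusted p = 0.000473). Without the 3 libraries the list had 5 of 5 positive at a median of 1.74. Macrophage markers summed to 1.74 to 38.6 in Treg WT, 31.2 to 286 in Treg KO, 22.3 to 1076 in Tconv WT and 42.6 to 201 in Tconv KO. Of their 3 tested members 2 were positive, Lyz2 at 5.13 and Csf1r at 4.22, and 1 was negative, Cd68 at −1.49. S100a9 of neutrophils read 4204, 33.5, 1 and 23.5 in Tconv WT (difference 5.17, 95% interval 0.57 to 9.77, unadjusted p = 0.0296). Genes shared by Treg and type 2 innate lymphoid cells summed to 17279.9 to 58562 in Treg WT, 37927 to 56008 in Treg KO, 4337 to 15654 in Tconv WT and 5933 to 17314 in Tconv KO, and 7 of 8 tested were positive at a median of 0.93, against 4 of 7 at 0.02 without the 3 libraries. With Treg WT 3 left out as well, 5 of 7 were positive at 0.53. Dendritic cell markers summed to 429.9 to 1295 in Treg WT, 969 to 2182 in Treg KO, 191 to 627 in Tconv WT and 401 to 758 in Tconv KO, with 5 of 6 positive at a median of 0.95. Markers of CD8 T and NK cells summed to 69.5 to 560.0 in Treg WT, 84.4 to 316 in Treg KO, 315 to 970.4 in Tconv WT and 494 to 1453 in Tconv KO, with 2 of 5 positive at −0.71, and 3 of 5 at 0.01 without the 3 libraries. Summed markers of B cells, adipocytes, stromal and mesothelial cells, and endothelial cells reached at most 226, 156, 124 and 1217 in any library. Their part in the differences of other genes was not tested. Markers of T cells gave 0.13 at the median over 8 genes.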

How the data were processed

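RNA of sorted Treg and Tconv was sequenced in 16 libraries from 10 ng of RNA with SMART-seq 2, a protocol that does not mark strand, per the labels' protocols. The authors' deposited signal is never negative and, from its values, is read counts over a size factor per library, plus 1; 100% of values under 1000 reads were whole reads within 0.1. Per the submitters' processing notes, kallisto 0.44, Partek 6.6, DESeq2, CASAVA 1.8 and build mm10 were used, in roles, and with a use of strand in counting, not given here. The 148 symbols written with a dot for a hyphen were restored.

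Values were taken as log2(value + 1), which understates changes where levels are low. The 14319 genes with values of 10 or more in 3 or more libraries were fitted in R 4.3.3 by limma 3.58.1, using a mean-variance trend and 4 group means. The 2-sided contrast was (Treg KO − Treg WT) − (Tconv KO − Tconv WT), with Benjamini-Hochberg adjustment over all 14319 genes, and calls at an adjusted p under 0.05. A single spread estimate served all groups, since each has few libraries. The script was tested on simulated data. Hpgd and numbers of genes with reads were compared by exact permutation tests. A library's floor is the value of 3 reads, covers counting error only, and ran from 1.38 to 7.09.

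The genes, the 33 lists and their members were chosen with earlier results of these data known, the cilium list after genes of the cilium had been seen among the smallest p-values. Named genes are Hpgd and Foxp3, and after their values were seen Cog3, Jagn1, Mgll and Plin3; in each direction the 12 smallest p-values with a highest group mean of at least 50 and the 6 with at least 1000; and of each list up to 4 members with the smallest p and 3 with the highest mean. Genes with an identifier for a name and receptor segments were not named, and some list members are not reported here. Positions are from GENCODE M21 (mm10), where all 616 listed or named genes were found; 203 have an exon overlapping another gene, 90 a protein coding one, and such genes are uncertain. Alternatives changed the pseudocount, filter, scaling, prior, weights, block and libraries.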

Additional observations from a re-analysis of the deposited data

Results flagged for a closer look

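Libraries that stood far from the rest of their group were looked for in 210 groups of 4 or 5 libraries. These covered read totals, genes with reads, Hpgd and the 67 named genes whose signs are counted below. Other genes given per library, such as Bbs2, were not looked at. In 19 groups the gap from 1 library to its nearest neighbour exceeded the 95% critical value of Dixon's test for the group's range on the log2 scale, or on the scale of gene numbers, and chance flags about 1 in 20 groups, or 10.5 of these. Tconv KO 3 accounted for 8 of them. It held 56.7 M reads, read Hpgd at 6.20, Fxyd6 at 2.39, Pou6f1 at 269, Gata3 at 5155, Tnfrsf9 at 16.1 and Rgs2 at 16070.3, and was without reads of Scd2 at 1.

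Tconv WT 3 stood apart for Fxyd6 at 2.01, Rimkla at 4.02, Thsd1 at 2.01 and Ptger4 at 884. Tconv WT 4 stood apart for Capg at 1174.0 and Klrk1 at 1124.5, and Tconv WT 1 for Ccl5 at 10566. Tconv KO 4 stood apart for Nphp4 at 2.60 and Smarcd3 at 15.4, and Treg KO 2 for Rimkla at 27.1 and Rplp0 at 15625. Where the rest of a group was without reads, as for Fxyd6, Nphp4, Thsd1, Hpgd and Rimkla in the groups named, any read sets a library apart.

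Hpgd, tested alone, gave a difference of deletion effects of −3.50 on the log2 scale (exact permutation p = 0.0317), by a test whose null is no effect in either cell type. Its Treg change alone had an exact permutation p of 0.0571, the smallest that a 2-sided exact test of 3 against 4 libraries allows, with the Treg WT libraries above the Treg KO libraries in 3 of 3 and reads in 1 of 9 Tconv libraries. The lowest Treg WT library, Treg WT 3, stood above on 3 reads against 2 in Treg KO 1.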

How the results depend on the processing

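The count of 0 passing genes held with pseudocounts of 0 and 10, without a filter, with a filter at 50, quantile scaling, a robust prior, library weights, voom with the deposited size factors (added after seeing the data), and without 3 or 4 libraries together. Leaving out single libraries gave 0 to 2 genes: 1 without Treg WT 1 (Gins2), 2 without Treg KO 2 (Fxyd6 and Rimkla), 1 without Tconv KO 3 (Rimkla) and 0 otherwise. Genes at an unadjusted p under 0.05 numbered 546 to 1055. The difference of Hpgd was −4.13 and −1.91 with pseudocounts of 0 and 10, and ran from −4.71 to −2.81 without single libraries, with exact permutation p from 0.0286 to 0.0741. It missed 0.05 without Tconv KO 3 (0.0571) and without any 1 Treg library. In each of these cases the p was the smallest that the test could give in this direction, so the misses say nothing about the effect. The p of 0.0317 over all 16 libraries was under 0.05 only through the Hpgd reads of Tconv KO 3. The difference in genes with reads was −240 when 3 or more reads were asked for (exact permutation p = 0.783), and 28.1 to 675 without single libraries. Replicate numbers are shared across groups. With the replicate block 0 genes passed, both with the number across groups (713 at an unadjusted p under 0.05) and within genotype (798). The 7 same-numbered Treg and Tconv pairs of a genotype correlated at 0.0227 to 0.0787, under the limit of 0.1 set for pairing, although each of 7 Treg libraries correlated best with its own number, as did 5 of 7 Tconv libraries, a hint from the data and not the design. Signs were counted for 67 of the named genes, most chosen for large differences, so that a kept sign says little. Of these, Ptges3 (3 alternatives) and Ccl5 (1) changed sign. Named genes outside the 67 changed sign as well. Without Tconv WT 1 and 3 and Tconv KO 3, for example, Ptgs2 went from 0.03 to −0.90, Plin2 from 0.50 to −0.12 and Tcf7 from −0.02 to 0.09. Tests with edgeR, DESeq2 and voom with TMM were not run. With 3 to 5 libraries a group, a gene with the median 95% interval shows only differences over 1.77 log2 units even without adjustment. An adjusted p under 0.05 asks for larger ones, and low genes in Tconv WT 2, whose floor was 7.09, are beyond reach.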

Other observations

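Nphp4 and Invs both belong to the nephronophthisis genes of the primary cilium, an organelle that lymphocytes lack, and they stood on opposite sides. The 24 tested genes of this group, assembled after those 2 had been seen, had 10 positive differences at a median of −0.19, and 15 of 24 at 0.38 when Tconv WT 1 and 3 and Tconv KO 3 were left out. Without Treg WT 3 alone it was 15 of 24 at 0.16. Bbs2, of the complex that carries cargo into cilia, read 21.1, 28.0 and 38.5 in Treg WT and 86.6, 42.5, 165 and 171 in Treg KO, without overlap, and 56.8, 61.9, 93.6 and 101 in Tconv WT and 117, 78.1, 1, 56.8 and 53.4 in Tconv KO (difference 2.91, 95% interval 0.08 to 5.73, unadjusted p = 0.0443). Tconv KO 3 was again without reads, and without the 3 libraries the difference was 1.92. Ttc8, of the same complex, gave −2.93 (95% interval −6.53 to 0.66, unadjusted p = 0.104) and the transport protein Ift140 2.04 (95% interval −0.53 to 4.61, unadjusted p = 0.113).

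Translation factors had 19 of 31 positive (median 0.11, 0.01 without those 3 libraries and −0.03 without Treg WT 2). Eif5, which helps select the start codon, read 3655, 4207 and 5665 in Treg WT and 2835, 2831, 2249.6 and 3192 in Treg KO, without overlap (difference −0.53, 95% interval −1.08 to 0.02, unadjusted p = 0.0592), and Eif3i, of the initiation factor that binds the small ribosomal subunit, read 916, 780.0 and 1049 in Treg WT and 1061, 1164, 1488 and 1302 in Treg KO, also without overlap and in the other direction (difference 0.41, 95% interval −0.12 to 0.93, unadjusted p = 0.12). Eef1a1 and Eef2, the abundant elongation factors, gave 0.19 and 0.27 with intervals that held 0.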
